A study of Mus musculus with 4 samples.

Results

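A set of named regulators of the early embryo, 10 of the 20171 genes in the table, were followed from the oocyte to the blastocyst and in embryonic stem cells: Pou5f1, Sox2, Nanog, Esrrb, Zfp42, Tdgf1 and Sall4 as factors of pluripotency, and Gata6, Sox17 and Pdgfra as factors of the primitive endoderm. They were listed by symbol, the rule that lists them uses no measured value, and all 10 were found. The isoform table held 26 of its 68012 isoforms for 9 of them and none for Pdgfra.

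Single mouse cells were amplified 1 to a reaction with a barcoded gel bead, and full-length cDNA was read on the PacBio platform, so that each molecule carries a unique molecular identifier (UMI) and its splice pattern. The labels describe embryos of C57BL/6J females 6 to 8 weeks old and DBA/2NCrl males, while the strain entry of the samples reads DBA/2J x C57BL/6J, and no mutation or transgene is stated. All females were superovulated with PMSG and hCG. Cells came from 10 MII oocytes of unmated females (20 hours after hCG), 9 zygotes (22 to 24 hours), 10 early 2-cell (E2C, 30 to 32 hours) and 11 late 2-cell (L2C, 46 to 48 hours) blastomeres, 17 4-cell (54 to 56 hours), 26 8-cell (68 to 70 hours), 38 16-cell and 22 32-cell blastomeres (both 78 to 80 hours), 13 cells of early blastocysts (88 to 90 hours) and 5 mouse embryonic stem cells (mESC) of the male line E14Tg2A, grown without feeder cells on gelatin in serum medium. For 121 cells the column name tells the embryo, zygote or oocyte of origin, which is the replicate here, with 10 oocytes, 9 zygotes, 5 embryos at E2C, 6 at L2C, 5 at the 4-cell, 4 at the 8-cell and 4 at the 16-cell stage. Cells of the 32-cell stage, the blastocyst and the stem cell line carry no such number and are described without a test. The mESC are 1 line, and blastocyst cells were not separated into lineages before sequencing.

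In the mouse, Pou5f1 (OCT4), Sox2 and Nanog are transcription factors that hold the inner cell mass and stem cells in an undifferentiated state, and OCT4 and SOX2 bind DNA together at an octamer next to a SOX site. As the blastocyst forms, outer cells become trophectoderm, marked by Cdx2, and the inner cell mass resolves into epiblast, marked by Nanog and Sox2, and primitive endoderm, marked by Gata6, Pdgfra and Sox17, after a period in which single cells hold both Nanog and Gata6. Esrrb, Zfp42 (REX1) and Tdgf1 (Cripto, a co-receptor of NODAL) are widely used markers of naive stem cells, and Sall4 is a zinc finger factor that is also made by the oocyte.

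Stretches of sequence are shown for the genes whose promoter windows held the letters TTTGCAT, and for the 1 Esrrb isoform. RefSeq (GRCm38.p6) gave 10 promoter windows, 250 bases before to 50 after a start, for 7 of the 10 genes. Both strands were searched for TTTGCAT, which is 1 base short of the octamer and is called the OCT letters here. The SOX letters ACAATG, and both together with 1 base between them, were searched likewise. The full octamer was not searched. The joined letters stand in 2 of 32851 promoter windows (0.00609%), which are both windows of Nanog and overlap each other. The OCT letters stand in 1520 windows (4.63%) and the SOX letters in 4129 (12.6%). In the Nanog window below the joined letters, in capitals, begin 151 bases before the start at chr6:122707315-122707614 on the + strand. Zfp42 (chr8:43306960-43307259, - strand) holds the OCT letters 185 bases before its start. Sox2 (chr3:34649745-34650044, + strand) holds them on the other strand, 99 bases before, where they read ATGCAAA. The windows are printed 5′ to 3′ with the matches in capitals.
Nanog promoter: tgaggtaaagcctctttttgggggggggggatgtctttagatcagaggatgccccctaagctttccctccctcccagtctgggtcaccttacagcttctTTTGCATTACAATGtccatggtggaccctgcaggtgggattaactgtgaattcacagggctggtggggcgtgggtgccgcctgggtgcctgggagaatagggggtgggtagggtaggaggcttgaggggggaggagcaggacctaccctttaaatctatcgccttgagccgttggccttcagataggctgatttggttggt
Zfp42 promoter: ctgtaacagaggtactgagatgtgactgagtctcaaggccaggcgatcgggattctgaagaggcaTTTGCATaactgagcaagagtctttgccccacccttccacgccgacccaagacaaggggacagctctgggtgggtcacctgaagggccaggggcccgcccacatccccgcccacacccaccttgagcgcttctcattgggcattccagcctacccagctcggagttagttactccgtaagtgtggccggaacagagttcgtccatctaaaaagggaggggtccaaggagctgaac
Sox2 promoter: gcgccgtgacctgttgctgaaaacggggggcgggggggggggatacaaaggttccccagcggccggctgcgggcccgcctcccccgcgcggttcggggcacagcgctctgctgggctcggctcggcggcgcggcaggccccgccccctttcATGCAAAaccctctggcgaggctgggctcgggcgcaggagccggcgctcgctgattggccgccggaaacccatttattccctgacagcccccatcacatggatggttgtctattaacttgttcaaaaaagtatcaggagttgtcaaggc
A second Pou5f1 window held the SOX letters 158 bases before its start and an Esrrb window 32 bases after it, and neither set of letters was found in the windows of Tdgf1 and Pdgfra. A match describes the letters of the window only.

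By GENCODE vM21 on GRCm38 (mm10) the genes lie on 10 different chromosomes: Pou5f1 at chr17:35506018-35510772, Sox2 at chr3:34650405-34652461, Nanog at chr6:122707489-122714633, Esrrb at chr12:86361117-86521628 and Gata6 at chr18:11052064-11085635. Pdgfra lies at chr5:75152292-75198215, and all these are on the + strand. On the - strand lie Zfp42 (chr8:43295063-43306980), Tdgf1 (chr9:110939603-110946158), Sall4 (chr2:168748332-168767943) and Sox17 (chr1:4490931-4497354). Pseudogenes named for Pou5f1, Nanog, Tdgf1 and Zfp42 are in the same annotation, and how reads of such copies were divided was not examined here, so these values may be uncertain.

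Levels are copies per 100,000 UMIs of a cell, averaged over the cells of an embryo. Oocytes and zygotes gave 166731 to 389775 UMIs a cell, E2C and L2C blastomeres 17971 to 105534, and all later cells 4985 to 60831, so that 1 UMI of a median 4-cell blastomere (32466 UMIs) is a coarse step for genes this rare. Libraries stood apart in 1 respect: the summed level of 12 oocyte marker genes averaged 49.7, 34.9 and 20.9 in embryo 2 of the 4-, 8- and 16-cell stages, and 109 to 372 in the other embryos of those stages. It was 3500 to 3791 in zygotes 7, 8 and 9 and 1738 to 2647 in the other zygotes. Some results that rest on these embryos are also given without them. Of the defining genes in the mESC, Pou5f1, Esrrb, Zfp42, Tdgf1 and Sall4 were found in 5 of 5 cells, but so were the oocyte genes Oosp1 (median 44.0), H1foo (43.0) and Gdf9 (30.1), while Zp1, Zp2, Bmp15, Nlrp5 and Padi6 were at 0. The summed oocyte list had a median of 3675 in oocytes, 280 in blastocyst cells, 141 in mESC and 21.6 in 32-cell blastomeres, and its part in the values of the 10 genes was not tested. Markers of cumulus and granulosa cells summed to at most 9.81 and fibroblast markers to at most 17.6 in any cell.

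**Figure D1:**
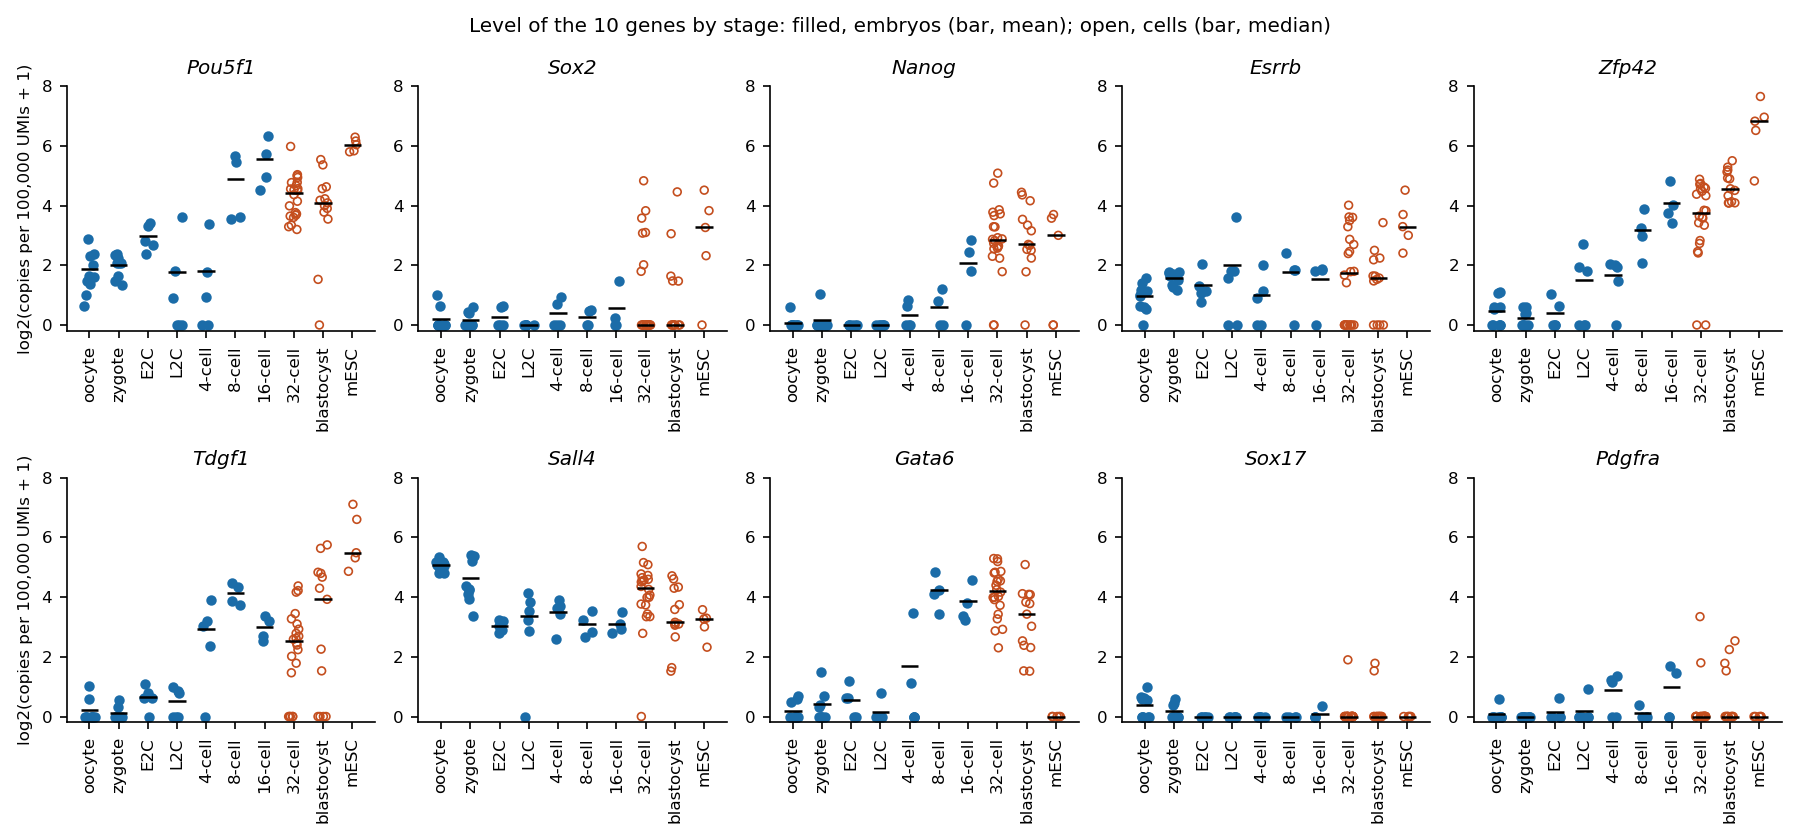
Levels of the 10 genes from oocyte to mESC, as log2(copies per 100,000 UMIs + 1). Filled points are oocytes, zygotes or embryos with a bar at the log of their mean level, and open points are single cells of the stages that name no embryo, with a bar at the median. Pou5f1 and Gata6 step up between the 4-cell and 8-cell stages, Sall4 is at 26.9 to 39.5 copies in oocytes and 5.29 to 10.6 in 8-cell embryos, with single 32-cell blastomeres up to 50.7, and Sox17 stays near 0.

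Pou5f1 was present in every oocyte and zygote at a low level, nearly left the embryo at the late 2-cell stage and returned at the 8-cell stage. Oocytes held 0.553 to 6.33 copies per 100,000 (median 2.07, n = 10) and zygotes 1.55 to 4.23 (median 3.21, n = 9). The 5 E2C embryos held 6.10, 9.54, 4.14, 9.03 and 5.40. Of the 6 L2C embryos, 3 held none and the others 11.1, 2.48 and 0.861, and the value of 11.1 came from 2 UMIs in the single cell of embryo 1, which had 17971 UMIs. The 4-cell embryos held 0.923, 0, 0, 9.30 and 2.44. All 4 8-cell embryos (11.2, 10.8, 42.6 and 49.5) lay above all 4-cell embryos, and the 16-cell embryos held 21.8, 30.0, 79.4 and 52.4. The means were thus 6.84 ± 2.34 (SD, n = 5) in E2C, 2.41 ± 4.38 (n = 6) in L2C, 2.53 ± 3.91 (n = 5) in 4-cell and 28.5 ± 20.4 (n = 4) in 8-cell embryos. On the log2(value + 1) scale, where changes of rare genes look smaller than they are, Pou5f1 fell by 2.34 (SE 0.49) from E2C to L2C and rose by 2.60 (SE 0.53) from 4-cell to 8-cell, with Benjamini-Hochberg adjusted p of 4.57e-05 and 0.000245 by limma. The 8-cell to 16-cell difference of 0.66 (SE 0.49, limma adjusted p = 0.748) and the zygote to E2C difference of 0.95 (SE 0.36, limma adjusted p = 0.0621) were not called. Within embryos the stage was uneven at first: 4 of 4 cells of 4-cell embryo 4 held a Pou5f1 UMI, 3 of 4 of embryo 5, and 1 of 9 cells of the other 3 embryos. Embryos 4 and 5 were also the most deeply read, with medians of 42173 and 41008.5 UMIs a cell against 28113.5, 12705.5 and 21148 in embryos 1 to 3, and the part of depth was not tested. By the 8-cell stage 25 of 26 cells did, and by the 16-cell stage 38 of 38. The 22 32-cell blastomeres had a median of 20.6 copies per 100,000 (8.18 to 62.0), the 13 blastocyst cells 16.0 (0 to 45.4) and the 5 mESC 64.5 (54.6 to 77.1). No mESC was below the median of any embryo stage.

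Sall4 went the other way. It was a maternal transcript, at 26.9 to 39.5 copies per 100,000 in the 10 oocytes (median 32.9), and stayed in every later stage at a lower level. The 9 zygotes ran from 9.36 to 41.5 with a median of 18.2. Zygotes 7, 8 and 9 held 35.7, 41.5 and 40.2, above the oocyte median, and the other 6 held 9.36 to 19.5. These 3 zygotes are those with the high oocyte markers above, whose part in the Sall4 levels was not tested. E2C embryos held 6.43, 6.00, 8.48, 7.24 and 8.13, all below every zygote, so that Sall4 fell by 1.36 (SE 0.26, limma adjusted p = 0.000115) from 23.6 ± 12.1 (SD, n = 9) to 7.26 ± 1.06 (n = 5). The fall was called in 34 of 35 alternatives, among them the one without zygotes 7, 8 and 9, and not with a pseudocount of 10 (-0.83). From oocyte to zygote the difference was -0.67 (SE 0.19, limma adjusted p = 0.0110), under the fold that was called, and without zygotes 7, 8 and 9 it was -1.02 and was called. In later stages the means were 9.24 ± 5.81 (n = 6) in L2C, 10.4 ± 3.31 (n = 5) in 4-cell, 7.59 ± 2.39 (n = 4) in 8-cell and 7.65 ± 1.93 (n = 4) in 16-cell embryos, and none of these steps was called by limma. The 32-cell blastomeres had a median of 18.8 (0 to 50.7), the blastocyst cells 7.90 (1.86 to 25.2) and the mESC 8.61 (3.99 to 10.9).

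Nanog had its called rise 1 step later than Pou5f1, from the 8-cell to the 16-cell stage. In oocytes it was found in 1 of 10 and in zygotes in 1 of 9, although these cells were the most deeply read, and no E2C or L2C cell held a UMI. The 8-cell embryos held 0.741, 1.32, 0 and 0 copies per 100,000 and the 16-cell embryos 6.14, 4.38, 0 and 2.49. The groups overlapped through 16-cell embryo 3, where 0 of 7 cells held a Nanog UMI at a median of 12236 UMIs a cell. Nanog rose by 1.60 (SE 0.30, limma adjusted p = 0.00105) from 0.516 ± 0.642 (SD, n = 4) to 3.25 ± 2.63 (n = 4). Before the 16-cell stage only zygote 4 and 8-cell embryo 2 held 1 copy per 100,000 or more. Nanog thus passed the filter given below only through the 16-cell embryos, and the p-value is no separate evidence of this rise. The call was lost without 16-cell embryo 1 (0.77, unadjusted p = 0.0297 by limma), and in the count models and without embryo 2 of the 4-, 8- and 16-cell stages Nanog was too low to be tested. Cells of 32-cell embryos had a median of 6.19 (0 to 32.9), blastocyst cells 5.49 (0 to 20.7) and mESC 7.01 (0 to 12).

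Sox2 was too rare for a test. No embryo mean passed 1.75 copies per 100,000, and that value belonged to 16-cell embryo 1, while the other 16-cell embryos held 0.187, 0 and 0. It was found in 4 of 38 16-cell cells, 7 of 22 32-cell cells, 5 of 13 blastocyst cells and 4 of 5 mESC. Where it was present it could be high: the top 32-cell blastomere held 27.4 copies per 100,000, the top blastocyst cell 20.9 and the top mESC 21.8, and the median over all cells was 0 in the first 2 of these groups and 8.61 in mESC.

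Over the stages that name an embryo, of the naive markers Zfp42 climbed by small steps, Tdgf1 peaked at the 8-cell stage and Esrrb had no called change. Zfp42 held 2.86, 0, 1.78, 3.05 and 3.16 copies per 100,000 in the 4-cell embryos, 3.22, 6.82, 13.6 and 8.57 in the 8-cell embryos and 15.2, 12.5, 27.1 and 9.72 in the 16-cell embryos. All 8-cell embryos were above all 4-cell embryos, but the difference of 1.02 (SE 0.43, limma adjusted p = 0.101) was not called. That step was called under 6 of 35 alternatives, among them no array weights (1.54), edgeR with TMM (1.77) and DESeq2 (1.88). The 8-cell to 16-cell difference of 1.16 (SE 0.40) passed the call limits at an unadjusted p of 0.00530, with a limma adjusted p of 0.160, and was called under 21 of 35 alternatives. Over the whole span, from 0.377 ± 0.462 (SD, n = 10) in oocytes to 16.1 ± 7.63 (n = 4), it rose by 3.55 (SE 0.32, limma adjusted p = 3.18e-15). Blastocyst cells had a median of 22.6 (15.9 to 44.2, 13 of 13 cells) and mESC 112 (27.3 to 200).

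Tdgf1 was at most 1.10 copies per 100,000 in any embryo up to the L2C stage. It held 8.16, 0, 13.8, 4.17 and 7.08 in 4-cell embryos, 21.0, 12.3, 13.6 and 19.2 in 8-cell embryos and 5.52, 4.77, 9.29 and 8.18 in 16-cell embryos. No 16-cell embryo reached the lowest 8-cell embryo. It rose by 2.29 (SE 0.40, limma adjusted p = 0.000468) from L2C to 4-cell and by 1.38 (SE 0.38, limma adjusted p = 0.00711) from 4-cell to 8-cell, and fell by 1.34 (SE 0.35, limma adjusted p = 0.0359) from 8-cell to 16-cell. The fall was not called without 16-cell embryo 1 (-1.11, unadjusted p = 0.0151) or without array weights (-1.15, unadjusted p = 0.0104), both by limma, and held in 32 of 35 alternatives. Tdgf1 was again high in some blastocyst cells (median 14.2, 0 to 52.6) and in all mESC (median 43.7, 28.0 to 136).

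Esrrb, a nuclear receptor, had stage means between 0.961 ± 0.591 (SD, n = 10) in oocytes and 3.01 ± 4.14 (n = 6) in L2C, where embryo 1 alone held 11.1 and the other 5 held 0 to 2.50. None of its 7 comparisons was called. Oocyte to zygote came nearest, with 0.60 (SE 0.22, limma adjusted p = 0.0595). In mESC it was found in 5 of 5 cells at a median of 8.80 (4.30 to 21.8), and in blastocyst cells in 9 of 13 at a median of 1.97.

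Among the primitive endoderm factors, Gata6 appeared abruptly at the 8-cell stage. It was at 0 in 3 of 5 4-cell embryos and at 1.2 and 10.0 in the others, the latter a single UMI in 1 cell of embryo 2. The 8-cell embryos held 17.9, 16.2, 27.5 and 9.69 copies per 100,000 and the 16-cell embryos 23.0, 13.0, 9.33 and 8.48. The lowest 8-cell embryo lay just below the 4-cell embryo with 1 UMI. Gata6 rose by 3.44 (SE 0.42, limma adjusted p = 9.95e-09) from 2.25 ± 4.38 (SD, n = 5) to 17.8 ± 7.35 (n = 4), and the step was called in 35 of 35 alternatives, as was that of Pou5f1. From 8-cell to 16-cell the difference was 0.05 (SE 0.39). All 22 32-cell blastomeres (median 17.4, 3.92 to 38.1) and all 13 blastocyst cells (9.75, 1.86 to 32.9) held Gata6. No UMI of Gata6, Sox17 or Pdgfra was found in the 103590 UMIs of the 5 mESC, which allows up to 2.90 copies per 100,000 of each, and 0 of 5 cells allows up to 52.2% of cells with a UMI by the exact binomial interval.

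The other primitive endoderm factors were near the limit of detection. Pdgfra, the receptor for PDGF, held 0, 0, 1.58, 1.32 and 1.24 copies per 100,000 in 4-cell embryos and 0, 1.71, 2.19 and 0 in 16-cell embryos, and its largest difference, from 4-cell to 8-cell, was -0.81 (SE 0.28, limma adjusted p = 0.0344), short of the fold that was called. Sox17 had at most 0.974 in an oocyte, no UMI from E2C to 8-cell embryos, and 1, 1 and 2 cells in the 16-cell, 32-cell and blastocyst stages. Sox2 and Sox17 did not pass the filter, which asked for 1 copy per 100,000 or more in 4 or more embryos, and the other 8 genes were tested with 11682 genes in all.

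Counted over the 8 tested genes, a change was called at an absolute log2 fold change over 1 and an unadjusted p under 0.01, and the share of all tested genes called in that direction is given as background. From oocyte to zygote 0 of 8 were called (background 3.24% in either direction), with 2 of them, Sall4 and Esrrb, at an unadjusted limma p under 0.05 and 0 called by edgeR or DESeq2. From zygote to E2C 1 was lower (Sall4, background 2.75%), and from E2C to L2C 1 was lower (Pou5f1, background 22.8%), so that a fall at genome activation was common among all genes. From L2C to 4-cell 1 was higher (Tdgf1, background 2.41%). From 4-cell to 8-cell 3 of 8 were higher (Gata6, Pou5f1 and Tdgf1, background 4.47%), and the median log2 fold change was 0.87 for the 8 genes and -0.16 for all genes. From 8-cell to 16-cell 2 were higher (Nanog and Zfp42, background 1.9%) and 1 lower (Tdgf1, background 1.46%). Between oocyte and 16-cell 5 of 8 were higher (Gata6, Zfp42, Pou5f1, Tdgf1 and Nanog, by 3.89, 3.55, 3.33, 2.69 and 2.14, background 26.8%), and Sall4 was lower by -1.84 (background 24.0%). The median over the 8 genes was 2.42, and 0.04 over all genes. The 8 genes passed the filter through the stages where they are present, so these counts describe them and do not stand for all 10.

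**Figure D2:**
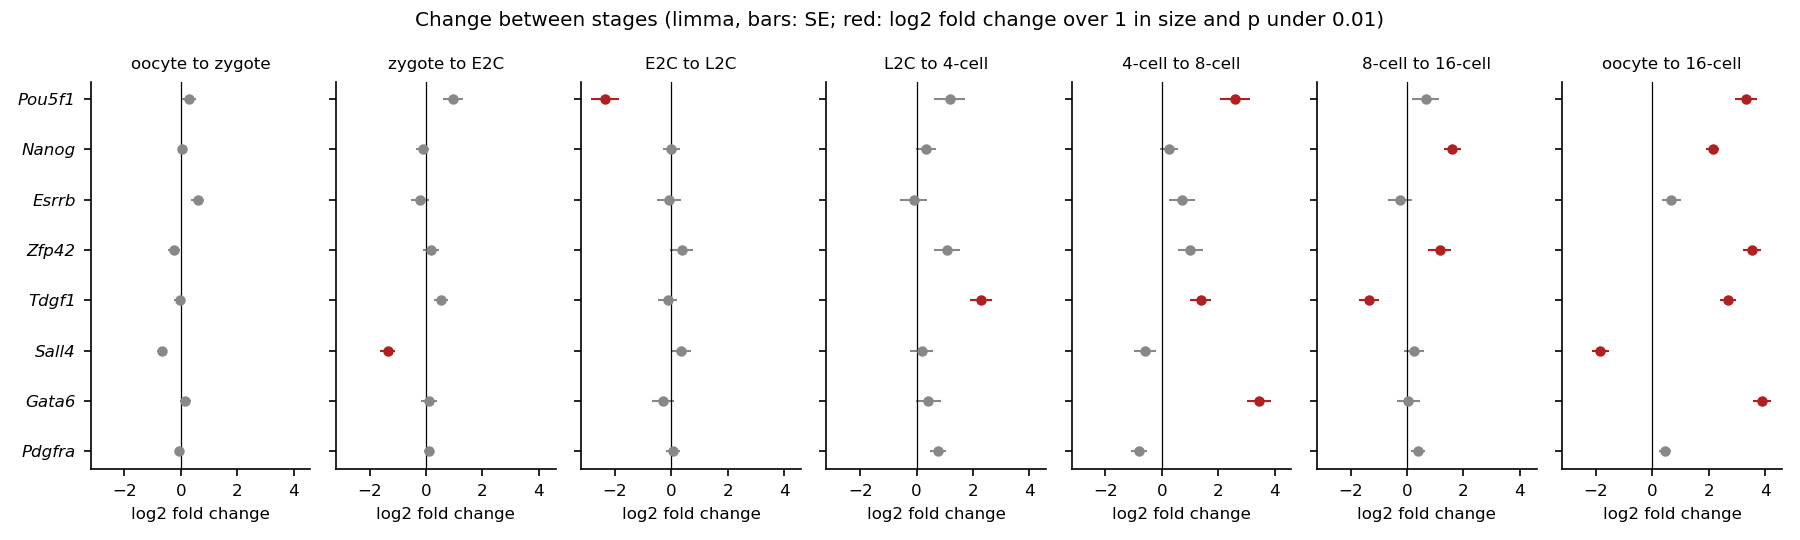
Log2 fold change (log2 of copies per 100,000 + 1) of the 8 tested genes in 7 comparisons, with bars of 1 SE from the limma fit. Red points were called. The called rises of Pou5f1 (2.60) and Gata6 (3.44) fall in the 4-cell to 8-cell panel, and Tdgf1 is called in both directions in consecutive steps.

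At full depth 6, 7 and 7 of the 10 genes were found in at least 50% of 16-cell, 32-cell and blastocyst cells, and 2, 3 and 2 once every cell was thinned to 5000 UMIs. Without 16-cell embryo 2, 5 of 10 reached that share at the 16-cell stage. Of 38 16-cell cells, 38 held a UMI of Pou5f1, 33 of Zfp42, 33 of Sall4, 32 of Gata6, 25 of Tdgf1, 20 of Nanog and 17 of Esrrb. Of 22 32-cell cells, Pou5f1 and Gata6 were in 22, Sall4 in 21, Nanog and Zfp42 in 20, Tdgf1 in 17 and Esrrb in 13. Of 13 blastocyst cells, Zfp42, Sall4 and Gata6 were in 13, Pou5f1 and Nanog in 12, Tdgf1 and Esrrb in 9. The median cell held 6 of the 10 genes at the 16-cell stage (3 to 8), 7 at the 32-cell stage (4 to 9) and 8 in the blastocyst (4 to 10), and 6 of 10 in mESC (6 to 7), where the primitive endoderm genes were at 0. The share of cells with Nanog was 52.6% at the 16-cell stage (exact binomial 95% interval 35.8% to 69.0%), 90.9% at the 32-cell stage (70.8% to 98.9%) and 92.3% in the blastocyst (64.0% to 99.8%). These intervals cover counting error only and treat cells of an embryo as independent. The oocyte, which should lack Nanog, gave 10% at a median depth of 195670 UMIs, against 32481, 34772.5 and 47437 in the 3 stages, and 0.257% once thinned to 5000 UMIs. When every cell was thinned to 5000 UMIs, leaving out 1 shallower 4-cell blastomere, Nanog was at 16.3%, 33.1% and 33.1%, and Gata6 at 48.1%, 60.3% and 39.1% after 1.40% at the 4-cell and 52.8% at the 8-cell stage. At this depth the share with Pou5f1 went from 76.9% to 63.0% and 54.2%, and 97.2% in mESC. Sox2 moved from 2.67% to 12.5% and 9.83%, and 36.6% in mESC, and its intervals at full depth, 2.94% to 24.8% at the 16-cell and 13.9% to 68.4% in the blastocyst stage, overlap.

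**Figure D3:**
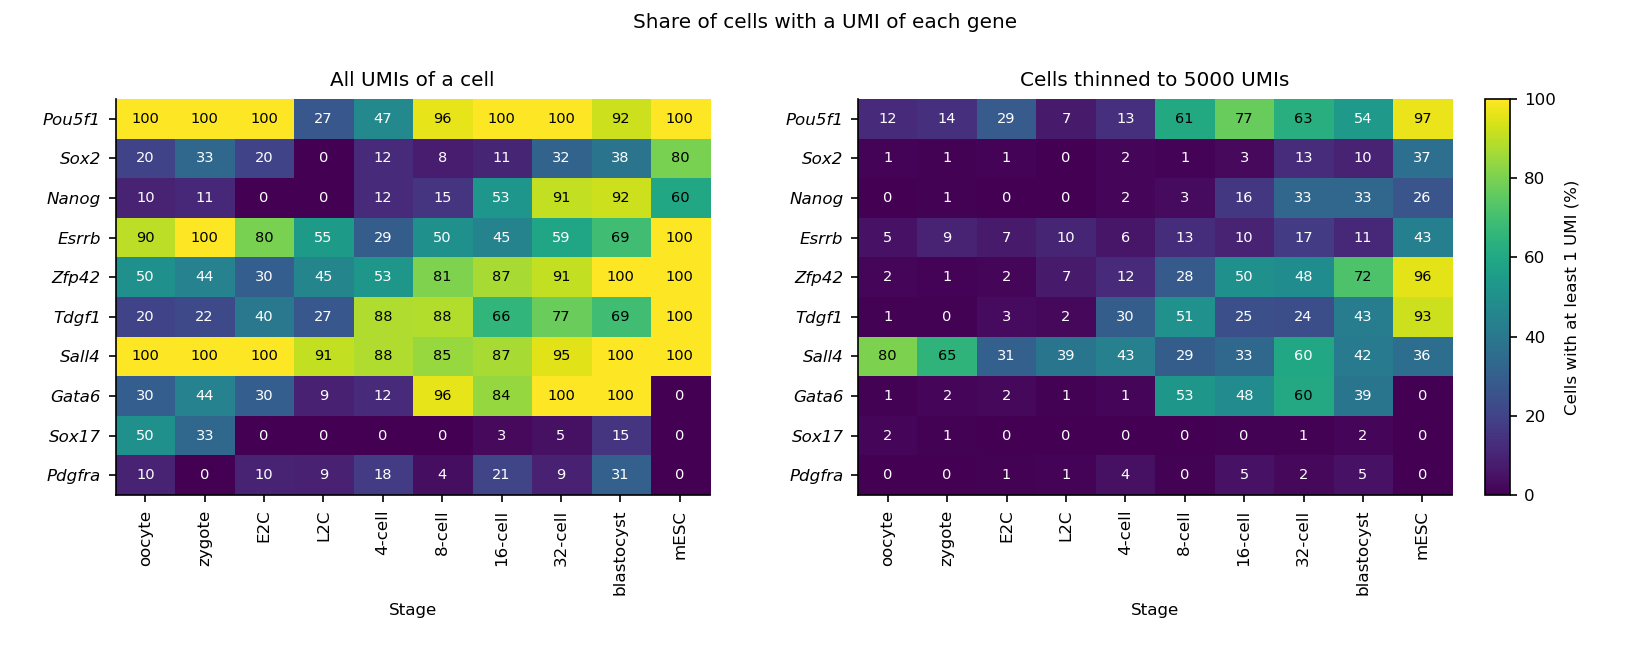
Percent of cells with at least 1 UMI of each of the 10 genes (rows) at each of 10 stages (columns), with all UMIs on the left and with every cell thinned to 5000 UMIs on the right. Gata6 goes from 1.40% to 52.8% of thinned cells between the 4-cell and 8-cell stages and is at 0 in mESC.

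Nanog and Gata6 often shared a cell, and Gata6 was itself in 32 of 38 16-cell cells, 22 of 22 32-cell cells and 13 of 13 blastocyst cells, so that its own share fixes most of this. Both were present in 18 of 38 16-cell cells (47.4%, exact binomial interval 31.0% to 64.2%), 20 of 22 32-cell cells (90.9%, 70.8% to 98.9%) and 12 of 13 blastocyst cells (92.3%, 64.0% to 99.8%). Nanog without Gata6 was seen in 2, 0 and 0 cells of these stages and in 3 of 5 mESC. Depth moved with the first of these shares: 16-cell cells with both genes had a median of 37707.5 UMIs, those with 1 of them 17108 and those with neither 12316.5. In the 32-cell stage the medians were 35883.5 with both and 24965 with 1, and in the blastocyst 47285.5 and 53110. Thinned to 5000 UMIs, both were found in 8.83%, 19.6% and 14.3% of cells. Without 16-cell embryo 2, the one with low oocyte markers, both were in 10 of 23 16-cell cells (43.5%).

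The rarer primitive endoderm genes fell within the Gata6 cells, which at these stages were nearly all cells. All 8, 2 and 4 cells with Pdgfra at the 16-cell, 32-cell and blastocyst stages held Gata6, as did the 1, 1 and 2 cells with Sox17. Of the 8 16-cell cells with Pdgfra 7 came from embryo 2, the one with low oocyte markers, and 1 of 23 cells held Pdgfra without it. The 2 blastocyst cells with Sox17 also held Pdgfra. Pou5f1, Sox2 and Nanog were all present in 2, 6 and 5 cells of the 3 embryo stages and in 2 of 5 mESC. All 5 blastocyst cells with Sox2 also held Nanog, Esrrb and Gata6.

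Sox2 and the trophectoderm factor Cdx2 were never found in the same cell. Sox2 was in 16 and Cdx2 in 26 of the 73 cells of the 3 stages, by stage in 4 and 15, 7 and 5, and 5 and 6 cells, and 0 of 73 held both. This pair was singled out after its values were seen. Median depths of the Sox2 and the Cdx2 cells were 31631.5 and 31781 UMIs at the 16-cell stage, 26929 and 38914 at the 32-cell stage and 47437 and 45433 in the blastocyst. For 0 of 13 blastocyst cells the exact binomial interval reaches 24.7% of cells with UMIs of both, and it says nothing of cells whose transcripts were missed. Tdgf1 had a median of 24.4 copies per 100,000 in the 5 Sox2 cells of the blastocyst, 0 in the 6 Cdx2 cells and 25.2 in the 2 cells with neither. The medians in Sox2, Cdx2 and other cells were 2.63, 1.69 and 6.36 at the 16-cell stage and 7.55, 5.45 and 3.35 at the 32-cell stage, and the sets are small. Blastocyst cell 6, with Cdx2 at 16.5 and Gata6 at 32.9, was the 1 cell with no Pou5f1 UMI, and at 18215 UMIs the least deeply read of the 13.

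**Figure D4:**
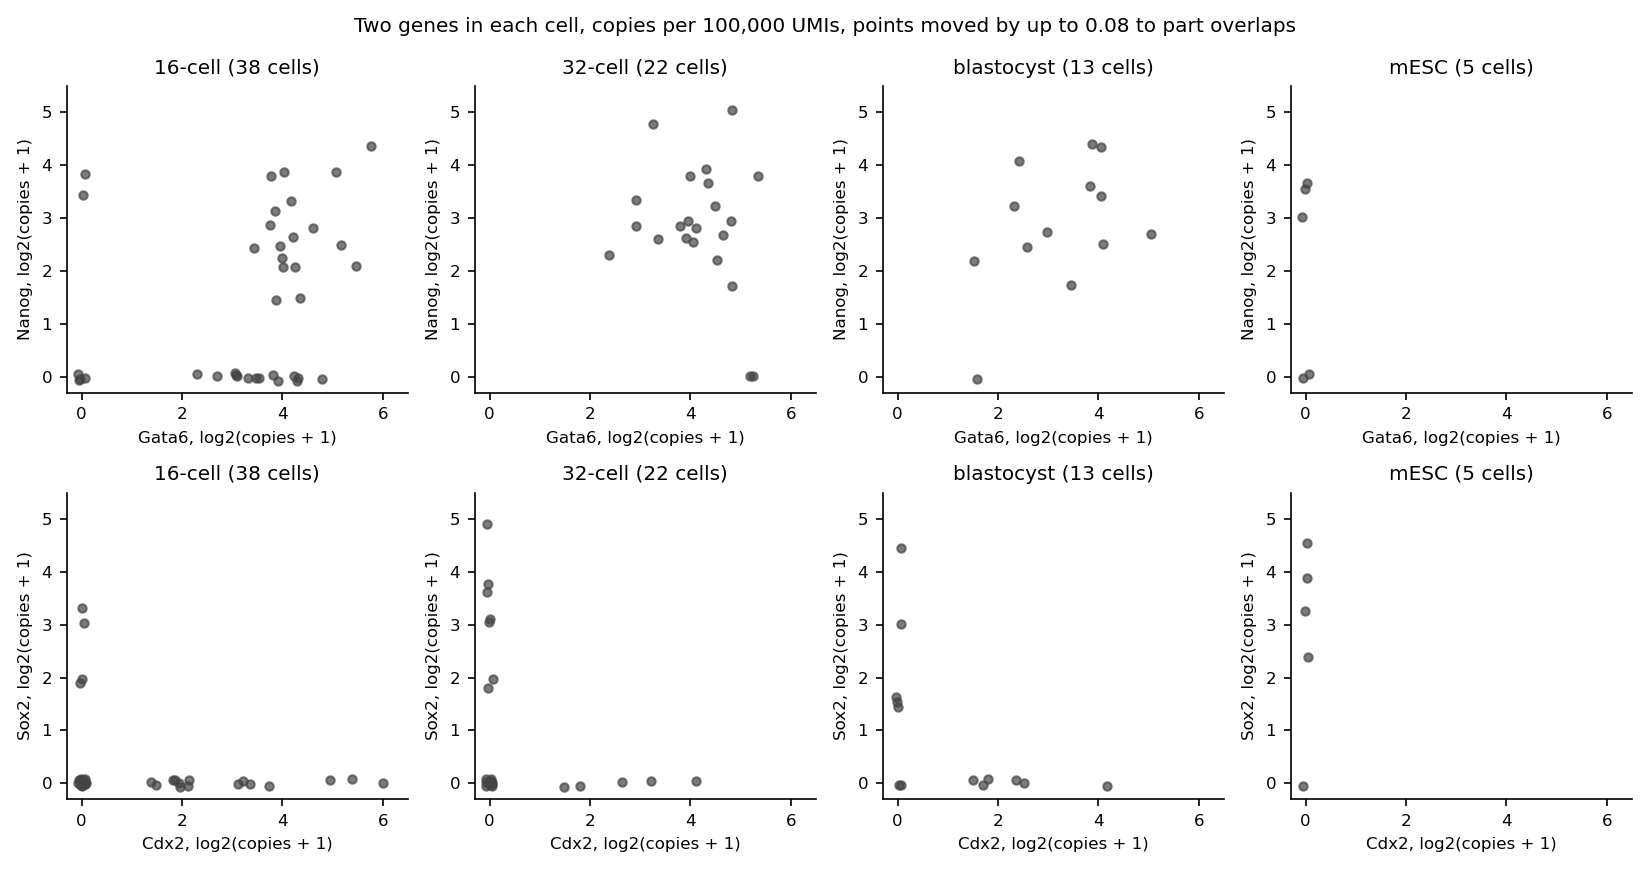
Levels per cell, as log2(copies per 100,000 + 1), of Nanog against Gata6 (top) and of Sox2 against Cdx2 (bottom) in 38 16-cell, 22 32-cell, 13 blastocyst and 5 mESC cells, with points moved by up to 0.08 so that cells at 0 can be seen. In the top row cells fill the inside of the panels in the 3 embryo stages, with both genes in 12 of 13 blastocyst cells, and in the bottom row every cell lies on an axis.

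Full-length reads assigned the molecules of these genes to isoforms very unevenly. Of the gene UMIs, 77.6% of Pou5f1 (847 of 1092), 67.5% of Tdgf1 (330 of 489), 60.2% of Zfp42 (388 of 644) and 93.5% of Sox2 (58 of 62) were in an isoform of the table, but 18% of Gata6 (95 of 528), 9.84% of Nanog (18 of 183), 9.64% of Esrrb (19 of 197), 5.04% of Sall4 (90 of 1785) and none of Pdgfra's 33. The isoform values of these last genes thus cover few of their molecules, and the step at which the rest were lost was not tested. Isoforms were classed as full splice match (FSM, all introns of an annotated transcript), incomplete splice match (ISM, a run of its introns) or as holding new junctions.

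Pou5f1 was 1 isoform in the main. PB.33165.1, an FSM isoform of 5 exons and 1416 bases with the introns of Pou5f1-201 and a 5′ end 42 bases before the annotated start, took 653 of 847 isoform UMIs (77.1%) in 128 cells. It took 87.8% in oocytes, 66.7% in E2C blastomeres, 80.3% at the 8-cell stage, 55% at the 32-cell stage, 77.2% in the blastocyst and 98.4% in mESC. The next, PB.33165.38 (ISM, 2 exons, 10.6%) and PB.33165.34 (ISM, 3 exons, 8.26%), began 3961 and 3389 bases after the start of Pou5f1-201. Over embryos with at least 5 such UMIs, the share of PB.33165.1 was 81.2% ± 12.5 (SD, n = 7 oocytes and zygotes) and 78.2% ± 13.0 (n = 8 8-cell and 16-cell embryos), a difference of 3.0 percentage points (exact permutation test, two-sided, p = 0.648), and no other gene had enough embryos on both sides.

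Zfp42, Tdgf1 and Sox2 likewise had 1 leading isoform. PB.71335.12 (FSM, Zfp42-201, 4 exons) held 326 of 388 Zfp42 UMIs (84.0%), and its 5′ end lay 62 bases before the RefSeq start printed above. PB.78165.1 (FSM, Tdgf1-201, 6 exons, 2397 bases) held 97.9% of Tdgf1 UMIs and began 468 bases before the start of that transcript. PB.46701.4 held 42 of 58 Sox2 UMIs (72.4%) as a single exon of 739 bases. It spans chr3:34651720-34652458, in the 3′ part of the gene, which starts at chr3:34650405. The longer PB.46701.1, of 1758 bases from chr3:34650701, held 27.6%. The 1 Nanog isoform, PB.64078.2 (Nanog-201, 4 exons), was found in 2, 7, 8 and 1 UMIs of the 16-cell, 32-cell, blastocyst and mESC cells and began 25 bases after the start of the Nanog-201 transcript.

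The Sall4 and Gata6 isoforms in the table, which hold few of the molecules of these genes, were all ISM. PB.45438.3, PB.45438.12 and PB.45438.4 were ISM isoforms of 2, 3 and 3 exons that began 14288, 12281 and 11203 bases after the start of the annotated Sall4 transcript whose introns they share, and took 43.3%, 28.9% and 27.8% of 90 Sall4 UMIs. Oocytes and zygotes supplied 34 and 29 of these UMIs. The leading Gata6 isoforms were PB.35297.5 (6 exons, 29.5%) and PB.35297.18 (4 exons, 27.4%).

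The 1 isoform of Esrrb in the table, PB.17653.14, matched the introns of Esrrb-205, an annotated noncoding transcript of 4 exons and 694 bases. Its exons 2 and 3 overlap coding exons of the gene and exons 1 and 4 do not, and it lies within chr12:86504389-86509960. All 19 of its UMIs came from 5 of 9 zygotes (11 UMIs) and 6 of 10 E2C blastomeres (8 UMIs), and none from oocytes or from any stage after E2C of this table. From E2C to L2C it went from 1.29 ± 0.859 (SD, n = 5) to 0 in 6 of 6 embryos, a difference of -1.17 (SE 0.30, limma adjusted p = 0.00176), while the gene as a whole was not called by limma. The isoform passed the filter only through the zygotes and E2C embryos where it was present. The p-value is therefore no separate evidence of this fall. In the separate table of split oocytes 2 UMIs were found in intact and 2 in 1/4 oocytes. The first exon is shown in lower case with the first 20 bases of exon 2 in capitals (GRCm38, + strand, spliced, between chr12:86504409 and chr12:86505834), because it is 1 of the 2 exons that overlap no coding exon.
Esrrb-205 start: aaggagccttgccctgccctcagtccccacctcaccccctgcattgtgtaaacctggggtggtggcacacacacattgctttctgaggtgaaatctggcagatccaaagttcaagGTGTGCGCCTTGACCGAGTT

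The same test covered 29409 isoforms. Of these genes it held all 4 isoforms of Pou5f1, all 3 of Sall4, and PB.35297.5 and PB.35297.18 of Gata6. It also held PB.71335.12, PB.78165.1 and PB.17653.14, and their other isoforms did not pass the filter. From E2C to L2C 2 isoforms were lower (PB.33165.1 of Pou5f1 by -1.74, limma adjusted p = 0.0305, and PB.17653.14, background 13.1%) and 1 was higher from L2C to 4-cell (PB.78165.1 of Tdgf1, 2.22, limma adjusted p = 0.00178, background 2.61%). From 4-cell to 8-cell 5 were higher (background 3.63%): PB.33165.1, PB.33165.38 and PB.33165.33 of Pou5f1 by 1.97, 1.40 and 1.17, PB.35297.18 of Gata6 by 1.45, and PB.78165.1 by 1.16. PB.78165.1 then fell by 1.52 from 8-cell to 16-cell (limma adjusted p = 0.0241, background 0.921%). Between oocyte and 16-cell 6 were higher (background 15.8%), led by PB.33165.1 (3.0) and PB.71335.12 of Zfp42 (2.96). The called isoforms thus moved in the directions of their genes, apart from Esrrb, whose gene was not called. No Sall4 isoform was called in any comparison, although the gene was lower from zygote to E2C. PB.71335.12 was not called from 8-cell to 16-cell (1.02), where Zfp42 was. The tested isoforms passed the filter through the stages where they are present, so these counts describe them only.

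**Figure D5:**
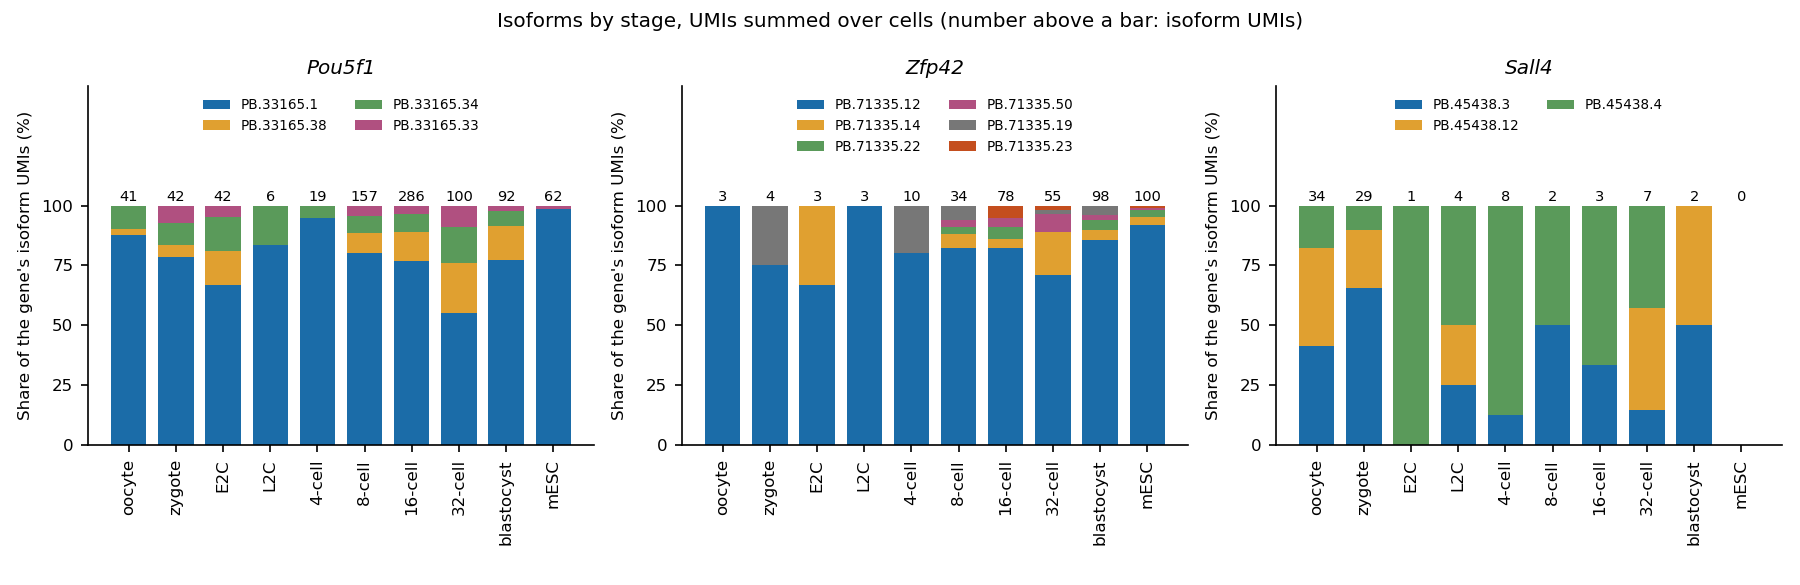
Percent of the isoform UMIs of Pou5f1, Zfp42 and Sall4 taken by each of their isoforms at each stage, with the number of isoform UMIs above each bar. PB.33165.1 leads Pou5f1 at every stage and takes 98.4% in mESC, while the Sall4 bars after the zygote rest on 8 UMIs or fewer.

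In batch 4, whose table was made separately from intact oocytes (4), 1/2 oocytes (6) and 1/4 oocytes (6), Sall4 was found in 16 of 16 reactions. It ran from 57.5 to 63.8 per 100,000 isoform UMIs in intact, 45.5 to 59.7 in 1/2 and 38.9 to 65.4 in 1/4 oocytes, with medians of 59.6, 56.4 and 47.4, and the ranges overlap. Pou5f1 had medians of 1.26, 1.03 and 1.06. No isoform of Nanog, Zfp42, Tdgf1 or Pdgfra was listed there. Batch 4 came as UMI counts and batches 1 to 3 as normalized values, and the 2 were made separately. The Sall4 isoforms had 542 UMIs in the 4 intact oocytes, and 34 in the 10 oocytes of batches 1 to 3 (median 1.53 per 100,000). The reason for this gap was not tested.

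Other genes of each lineage were counted to place the 10 genes. Of 24 further genes of the pluripotency network, 21 were tested. From E2C to L2C 9 were higher and 2 lower (all genes: 25.6% higher, 22.8% lower), with a median of 0.94 against 0.03 for all genes, led by Dppa4 (4.51), Fgf4 (3.11) and Dppa5a (3.01). At that step none of the 8 tested genes among the 10 was called higher, and Pou5f1 was called lower. From 4-cell to 8-cell 5 were higher and 1 lower (all genes: 4.47% and 10.5%), with Tbx3 up by 2.71 and Fgf4, a growth factor of the inner cell mass, at -1.63. Tfcp2l1 (1.56), L1td1 (1.33) and Tet2 (1.13) rose from 8-cell to 16-cell and none fell (all genes: 1.9% and 1.46%). Against the oocyte 13 of 21 were higher in 16-cell embryos and 1 lower (Rif1, -1.26), with 26.8% and 24.0% of all genes, led by Dppa5a (5.02), Dppa2 (4.78) and Dppa4 (3.93). The highest medians of the list were Dppa3 (577), Dppa5a (385) and Fbxo15 (117) in 32-cell cells, Dppa3 (593), Dppa5a (563) and Dppa2 (106) in blastocyst cells, and Dppa5a (1014), Utf1 (132) and Trim28 (83.6) in mESC.

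A list of 18 further primitive endoderm genes had 17 in the gene matrix, and 12 were tested. From 4-cell to 8-cell, where Gata6 rose, 1 was higher and 1 lower (all genes: 4.47% and 10.5%), with a median of 0.35 against -0.16 for all genes. Dab2, an endocytic adaptor, rose by 1.39 and Gata4, another GATA factor of this lineage, fell by 2.52, from 6.76 to 0.943 copies per 100,000. Gata4 was in 16 of 17 4-cell cells, 3 of 26 8-cell cells, 0 of 22 32-cell cells and 1 of 13 blastocyst cells. From 8-cell to 16-cell Dab2 (2.39) and the endocytic receptor Lrp2 (3.09) rose and none fell (all genes: 1.9% and 1.46%), and from E2C to L2C 0 rose and 3 fell, with 25.6% and 22.8% of all genes (Srgn -3.48, Dab2 -2.51 and Lamb1 -1.26). Against the oocyte, where 26.8% of all genes were higher and 24.0% lower, 3 were higher (Lrp2 2.95, P4ha2 2.71 and Dab2 1.11) and 3 lower (Srgn -3.76, Lamb1 -3.42 and Gata4 -1.69). Dab2 led the list in 32-cell (median 22.5, followed by Fgfr2 at 5.29 and P4ha2 at 4.97) and in blastocyst cells (17.1, followed by Lrp2 at 9.56 and P4ha2 at 7.53), and Lamc1 and Lamb1 (4.4 each) led it in mESC.

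Of 13 tested trophectoderm genes, 3 were higher and 1 lower from 4-cell to 8-cell, with 4.47% and 10.5% of all genes (Krt18 3.05, Fabp3 2.56, Krt8 2.07 and Atp1b1 -1.54), and 3 higher and 0 lower from 8-cell to 16-cell, with 1.9% and 1.46% of all genes (Id2 2.32, Cdx2 1.75 and Gata3 1.39). Gata3 had a limma adjusted p of 0.126 from 8-cell to 16-cell. From E2C to L2C Tead4 rose by 3.17 and Dppa1 fell by 1.93. The other 11 were not called at that step (all genes: 25.6% higher and 22.8% lower). Against the oocyte 7 were higher and 0 lower, with 26.8% and 24.0% of all genes, led by Fabp3 (4.13), Krt18 (3.47) and Tead4 (3.23). Medians in blastocyst cells were led by Fabp3 (32.9), Krt8 (23.1) and Tfap2c (10.5), in 32-cell cells by Fabp3 (21.8), Tead4 (12) and Krt8 (11.1), and in mESC by Fabp3 (28.0), Atp1b1 (8.80) and Lgals3 (7.01). Of the 11 tested oocyte genes 11 were lower in 16-cell embryos than in oocytes (24.0% of all genes), led by Gdf9 (-4.86), Mos (-4.69) and H1foo (-4.4). From E2C to L2C 5 were lower and 1 higher, with 22.8% and 25.6% of all genes (Bmp15 -5.31, Ooep -3.96 and Oosp1 -3.54 the most), and in the steps from 4-cell to 16-cell 0 were called. The 1 tested cumulus gene, Cyp19a1, was lower from E2C to L2C (-1.89) and against the oocyte (-2.37), and the 1 tested fibroblast gene was not called in any comparison.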

How the data were processed

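Gene and isoform levels of 161 single cells of mouse oocytes, embryos and embryonic stem cells were analysed, with 16 intact or split oocytes of a separate batch. The authors read barcodes and UMIs with scISA-Tools, aligned to mm10 by minimap2, named genes by gffcompare, used cDNA_Cupcake and then SQANTI3 to collapse and filter isoforms, and dropped those in fewer than 5 cells. The deposited gene and isoform values are of the CPM kind, as copies per 100,000 of a cell's total (CPM divided by 10), and the authors used the same unit for the deposited columns listed here under score. Batch 4 was deposited as whole UMI counts per isoform. Isoform values of a cell sum to 84419.2 to 97144.3, because rare isoforms were removed after the total was taken. Every value above 0 (100%) came out as whole UMIs within 0.1 UMI, and depth, thinned shares and count models rest on these UMIs.

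The 10 genes and all gene lists were chosen with earlier results of these data known. The oocyte, zygote or embryo in a cell's name was the replicate, and the names do not say whether a number was used again in another run. Each cell was picked into its own reaction, so no doublet caller was run, and cell names in place of barcodes identify the cells. Stages were compared by limma 3.58.1 in R 4.3.3, in 1 model with a trend and array weights, on log2(embryo mean + 1), for the 11682 genes and 29409 isoforms that reached 1 copy per 100,000 in 4 or more embryos, as 6 adjacent steps and 16-cell against oocyte. A call needed an absolute log2 fold change over 1 with an unadjusted two-sided p under 0.01. P-values were adjusted by Benjamini-Hochberg over every feature in the fit. Where nothing says that embryos came from separate litters, p-values measure the spread between these embryos only. The cells came from 3 batches, and the batch of a cell is not given. The fit therefore has no term for batch, and the part of batch in the differences between stages was not tested. Alternatives used edgeR 4.0.16 and DESeq2 1.42.0 on the recovered UMIs, other pseudocounts (0.5 and 10), no filter, no array weights, summed UMIs, cells of at least 10000 UMIs, and embryos left out. Shares of cells have exact binomial (Clopper-Pearson) 95% intervals, and a level with 0 UMIs allows up to 3 UMIs of the total. The rest used Python 3.11.15 (pandas 2.3.3, numpy 2.4.6, scipy 1.17.1, and matplotlib 3.10.9 for figures). The fits were also run on simulated counts, whose outcome is not given here. The changed genes in them had a mean of 5 or more copies per 100,000, so rarer genes such as Nanog were not covered. All 10 genes are named, with isoforms of at least 10% and 20 UMIs and up to 3 called genes of each list with the largest change at 10 or more copies per 100,000. Further genes of the lists in counts of 5 or fewer were named after their values were seen.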

Additional observations from a re-analysis of the deposited data

Results flagged for a closer look

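In 16 of 62 groups of 4 to 10 oocytes, zygotes or embryos, 1 stood far from the others by Dixon's test. Its rate of about 1 in 20 groups by chance does not hold for values with many zeros, so the 16 are not an excess over it. In 8 of the 16 all others of the group were at 0, where the test flags any value above 0. Pou5f1 was at 11.1 copies per 100,000 in L2C embryo 1 (others 0 to 2.48) and at 9.30 in 4-cell embryo 4 (others 0 to 2.44), and Esrrb was also at 11.1 in that L2C embryo. That L2C embryo is a single cell of 17971 UMIs, so that 2 UMIs give this value. Esrrb was at 0 in 16-cell embryo 3, while the other 16-cell embryos held 2.49 to 2.70. Sox2 was at 1.75 in 16-cell embryo 1 and Sox17 at 0.286 in the same embryo. Nanog was at 0.514 in oocyte 3 and 1.03 in zygote 4, with 0 in all other oocytes and zygotes. Tdgf1 was at 1.02 in oocyte 7. Gata6 was at 1.82 in zygote 1, 0.736 in L2C embryo 6 and 10.0 in 4-cell embryo 2. Pdgfra was at 0.516 in oocyte 4, 0.526 in E2C embryo 2, 0.875 in L2C embryo 6 and 0.319 in 8-cell embryo 1.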

How the results depend on the processing

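Of 278 counts and shares recomputed under an alternative, 249 stayed within 1.5 times the value or the interval reported, and 29 moved. None changed direction. With a pseudocount of 10 the members called went to 0 at zygote to E2C, E2C to L2C, L2C to 4-cell and 8-cell to 16-cell, since adding 10 shrinks the fold of genes at these levels. The same setting gave 0 isoforms in 4 adjacent steps (E2C to L2C, L2C to 4-cell, 4-cell to 8-cell, 8-cell to 16-cell) and 1 for oocyte to 16-cell. From 8-cell to 16-cell, where 3 were called, 1 was called without array weights (Nanog), by edgeR with TMM or DESeq2 size factors and by DESeq2 (Tdgf1), and without embryo 2 of the 4-, 8- and 16-cell stages (Tdgf1), and leaving out 1 embryo gave 0 (without 16-cell embryo 1) to 3. Leaving out 1 embryo gave 1 to 2 at zygote to E2C (Pou5f1 added without E2C embryo 3) and 1 to 2 at L2C to 4-cell (Pou5f1 added without 4-cell embryo 3, Zfp42 without L2C embryo 4 or 5, the latter added after seeing the data). Without array weights 1 isoform was lower from E2C to L2C (PB.17653.14) and 0 from 8-cell to 16-cell. Without zygotes 7, 8 and 9, an alternative added after seeing the data, 1 gene was called from oocyte to zygote (Sall4). Thinned to 5000 UMIs, 2, 3, 2 and 3 of the 10 genes were in at least 50% of 16-cell, 32-cell, blastocyst and mESC cells, where 6, 7, 7 and 7 were at full depth, and Nanog with Gata6 in 8.83%, 19.6% and 14.3% of the first 3. Of single-gene results, 686 kept their call, 13 gained it and 25 lost it, and none of these changed direction. No paired analysis was possible because embryo numbers are names within a stage and no embryo was sampled at more than 1 stage. Sox2, Sox17 and Pdgfra rest on 62, 13 and 33 UMIs over all cells, and the part of depth in this was not tested. The absence of Gata6 in mESC rests on 103590 UMIs.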

Other observations

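Sister blastomeres of an embryo could be set side by side at the 8-cell and 16-cell stages. Pou5f1, the OCT4 gene, ran from 6.10 to 15.5 copies per 100,000 over the 8 cells of 8-cell embryo 1 and from 33.8 to 73.8 over the 7 cells of 8-cell embryo 4, so that no cell of the first reached a cell of the second. At the 16-cell stage the ranges overlapped, at 7.72 to 61.6 (11 cells), 15.5 to 55.1 (15 cells), 40.6 to 110 (7 cells) and 20.0 to 108 (5 cells) in embryos 1 to 4. Nanog was found in 9 of 11, 9 of 15, 0 of 7 and 2 of 5 cells of these embryos and Gata6 in 11 of 11, 14 of 15, 5 of 7 and 2 of 5. Median depths of the 4 embryos were 38012, 38735, 12236 and 14987 UMIs, so the embryos with the smaller shares were also the less deeply read, and the part of depth in these shares was not tested within embryos. These pairs of genes and embryos were picked after their values were seen.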
